A study of Mus musculus with 14 samples.

Results

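The 39 genes described here belong to the p53 and DNA damage response: p53 itself (Trp53), its negative regulators, the kinases that sense DNA damage, and genes known as p53 targets in growth arrest, apoptosis, DNA repair and metabolic stress. They were taken by symbol from a list of known pathway genes. All 39 were among the 43432 genes of the deposited table, and all 39 were among the 17390 genes that passed the filter on low values (10 or more normalized counts in 2 or more of the libraries).

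The study measured mRNA by RNA-seq in sorted mouse lung cells. Male 129S1 mice aged 10 to 12 weeks received bleomycin, a drug that cuts DNA and is used to cause lung injury and fibrosis, or water, by the trachea at a labelled dose of 3 U/k. Cells positive for SiglecF and CD11c, the surface pair used to sort alveolar macrophages, were divided into MHCII-high and MHCII-low cells. The 14 libraries form 5 groups: MHCII-low cells from mice given water (the control, 2 libraries numbered 1 and 3), and MHCII-low and MHCII-high cells taken 2 or 4 weeks after bleomycin (3 libraries each). No MHCII-high control group was analysed here, so bleomycin and control are compared in MHCII-low cells only, and both times are set against the same 2 controls. The labels do not say whether each library came from 1 mouse or a pool, or which libraries shared a mouse, so the p-values measure the spread between these libraries.

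p53 is a transcription factor that is held at low activity by Mdm2, which marks it for destruction, and by Mdm4, which masks its activating region. DNA breaks activate the kinases Atm and Atr, which act through Chek2 and Chek1 and release p53 from this control, largely by modifying the protein. Active p53 then raises transcription of targets that stop the cell cycle (Cdkn1a, which encodes p21), drive apoptosis (Bax) or repair DNA, and of Mdm2 itself, which closes a feedback loop. Because p53 is controlled mostly as a protein, its mRNA level is not a measure of its activity.

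Recovered reads per library ranged from 15106415 to 88059632, and the share of mitochondrial ribosomal RNA from 3.12% to 28.99%. At 2 weeks that share was 22.51% to 26.25% in MHCII-high cells, while MHCII-low cells had 3.42%, 18.32% and 12.71%. At 4 weeks it was 8.12%, 28.99% and 21.13% in MHCII-high and 3.12%, 23.15% and 5.1% in MHCII-low cells. The 2 controls had 21.67% and 24.08%, so bleomycin and control libraries also differed in it. For the members, results between these groups are therefore also given with it as a covariate where a call is lost. Genes of the other lists are given from the main fit only. Of the sorting markers, Siglecf was measured at 3056.4 to 4358.1 normalized counts in the 6 MHCII-high and 6460.9 to 9550.6 in the 8 MHCII-low libraries, without overlap, and Itgax, which encodes CD11c, at 25185.0 to 44133.2 in all 14. The summed level of 10 alveolar macrophage markers was 325339.0 to 407971.4 normalized counts in MHCII-high libraries. It was 407247.4 to 561230.9 in bleomycin MHCII-low libraries and 389393.6 and 365098.2 in controls. Chil3 and Mrc1 made up most of this sum. The summed level of 10 monocyte-derived macrophage markers was 65300.7 to 80465.2 in the 2-week and 35696.8 to 44604.0 in the 4-week MHCII-high libraries. It was 14301.9 to 31634.9 in all MHCII-low libraries, controls included. Dendritic cell markers summed to 2178.1 to 3566.1 in MHCII-high and 223.8 to 652.6 in MHCII-low libraries.

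Short stretches before the transcription start are shown for members that recur in the results, because they carry the letters of a p53 half-site or of TGACGTCA, the recognition site of the CREB and ATF family. Sequences are from RefSeq on build GRCm38.p6, read 5′ to 3′ toward the gene, with the matched motif in capitals.
Cdkn1a, chr17:29090859-29090978, plus strand: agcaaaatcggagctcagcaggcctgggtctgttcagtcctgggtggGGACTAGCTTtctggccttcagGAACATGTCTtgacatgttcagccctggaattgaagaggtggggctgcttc
Mdm2, chr10:117710910-117710969, minus strand: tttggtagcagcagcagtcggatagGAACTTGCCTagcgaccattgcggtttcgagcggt
Ccng1, chr11:40755437-40755496, minus strand: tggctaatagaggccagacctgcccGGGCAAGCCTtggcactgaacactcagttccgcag
Bax, chr7:45467065-45467124, minus strand: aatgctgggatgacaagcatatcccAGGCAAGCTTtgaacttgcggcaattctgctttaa
Plk2, chr13:110394924-110395043, plus strand: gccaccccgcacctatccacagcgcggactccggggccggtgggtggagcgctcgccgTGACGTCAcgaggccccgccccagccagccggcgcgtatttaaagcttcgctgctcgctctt
Btg2, chr1:134079258-134079377, minus strand: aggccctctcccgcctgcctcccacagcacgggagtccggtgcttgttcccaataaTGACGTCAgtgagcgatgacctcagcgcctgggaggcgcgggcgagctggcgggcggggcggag

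The windows searched ran from 250 bases before to 50 bases after each start, on both strands, and 31 of the 39 members had at least 1 window (39 windows in all). A p53 half-site (10 bases) was found in 12 of these 39 windows, or 30.8%, against 8.36% of 32851 windows of all genes. By gene it was found in 11 of the 31 members, because overlapping windows of Aen held the same site. Many members were listed because they are known p53 targets, so this difference is not a result of these data. A pair of half-sites no more than 13 bases apart was found for 1 member, Cdkn1a, 73 to 42 bases before its start, and in 0.0731% of all windows. Its 2 marked half-sites lay 12 bases apart. The 10 bases directly after the second, tgacatgttc, differ from the half-site pattern in their first base only. The search allowed no mismatch and left them unmarked, so the marked pair need not be the site that p53 uses. In Mdm2 the half-site began 186 bases, in Ccng1 185 bases and in Bax 201 bases before the start. TGACGTCA was found in 4 member windows (Btg2, Cdkn2b, Plk2 and Ppm1d), or 10.3%, against 1.79% of all windows. It lay 62 to 55 bases before the start of Plk2 and 166 to 159 bases before that of Btg2. TGANTCA, the letters of an AP-1 site, was found in 5.13% of member windows (Fas and Mdm4) against 7.81% of all, and CCAAT in 48.7% against 37.4%. A match describes letters in a window and does not show binding, and the best studied p53 sites of several members lie outside these windows.

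Levels of the members spanned a wide range. Levels were scaled to exon length and to the recovered reads outside mitochondrial ribosomal RNA (called RPKM here). The medians over the 14 libraries were highest for Cdkn1a (114.0) and Ccng1 (106.0), both known targets of p53 in the cell cycle. They were followed by Perp (53.4), Btg2 (41.4), Mdm2 (38.2), Plk3 (36.7) and Trp53 (24.3). At the low end were Chek1 (0.597) and Cdkn2a (0.151), which encodes p16 and p19, and Eda2r was at 0 in 8 libraries and at most 20.6 normalized counts in the others. The highest library exceeded the lowest by 1.71 times for Trp53, and by 11.1 times for Ddit4 and 14.4 times for Cdkn2b. The plot of levels per exon length by group shows this order.

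**Figure D1:**
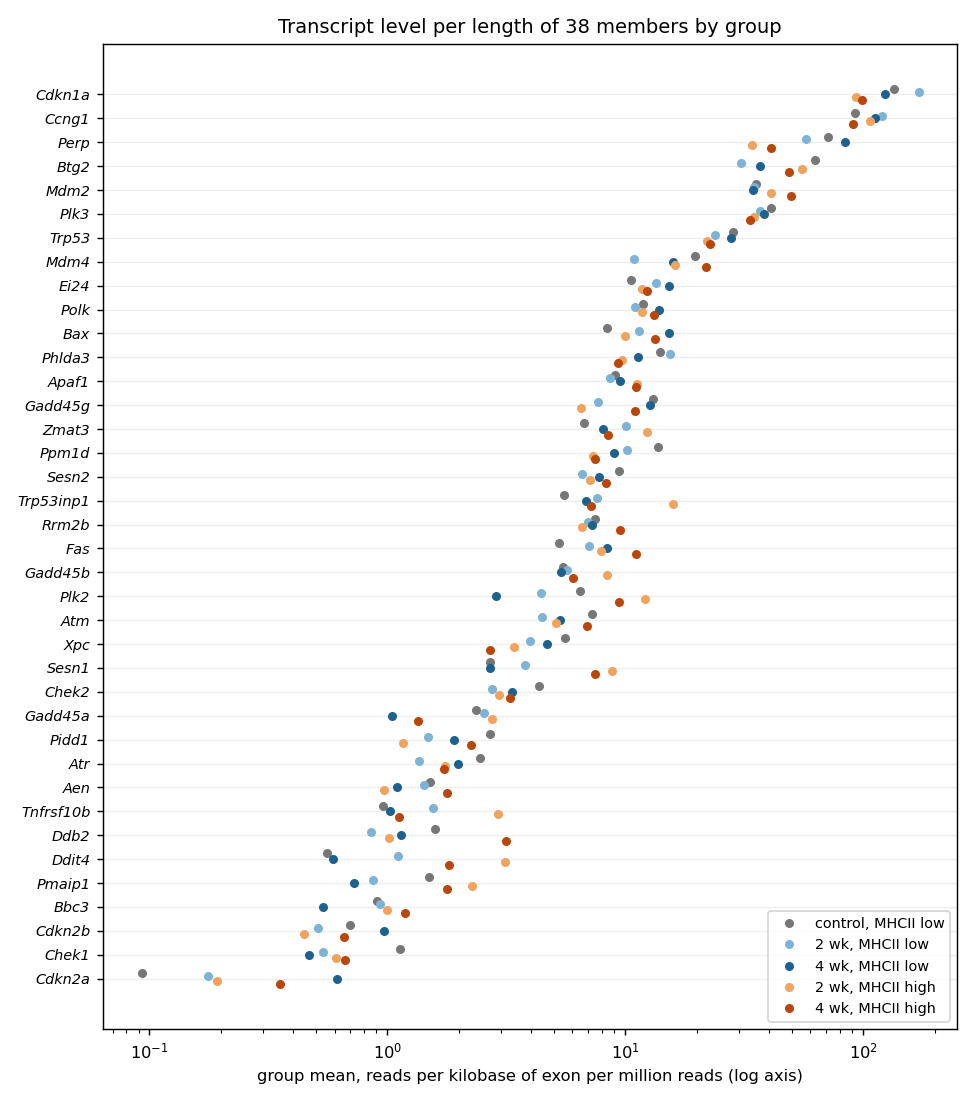
Level of 38 members scaled to exon length and to reads outside mitochondrial ribosomal RNA as RPKM (log axis), as the mean of each of the 5 groups. Eda2r is left out because its median is 0. Cdkn1a and Ccng1 lead with medians of 114.0 and 106.0, and Cdkn2a is lowest at 0.151.

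Between MHCII-high and MHCII-low cells after bleomycin, averaged over both times, 7 of the 39 members (17.9%) changed (limma, adjusted p under 0.05). The background was 7.21% of all 17390 genes tested. Of the 39 members, 14 had an unadjusted p under 0.05, beside 21.2% of all genes. Plk2, Sesn1, Btg2, Trp53inp1 and Mdm4 were higher in MHCII-high cells (5 of the 39 members, where 5% of all genes were higher). Perp and Cdkn1a were lower (2 of the 39 members, where 2.21% of all genes were lower). The split of calls depended on the setting: with a trend in GC content removed, which shifted the median of all genes by -0.26, 2 members were higher and 9 lower, and with the mitochondrial share as a covariate 1 was higher (Plk2) and 1 lower (Perp). So the members that changed went both ways, and the median log2 difference over the 39 members was 0.10 beside 0.02 over all genes. With the GC trend removed these medians were -0.16 and -0.24. The share of all genes called with the GC trend removed or with the covariate is not given here, so those counts stand without a background. At 2 weeks alone 4 of the 39 members (10.3%) changed, with Plk2, Trp53inp1 and Btg2 higher and Cdkn1a lower. Of all genes 2.87% changed, 2.29% higher and 0.581% lower. At 4 weeks alone 2 of the 39 members (5.13%) changed, Plk2 higher and Perp lower. Of all genes 2.5% changed, 1.96% higher and 0.535% lower. An unadjusted p under 0.05 was reached by 9 of the 39 members at 2 weeks (background 15.4%) and 8 of 39 at 4 weeks (background 15%). The libraries of the groups did not overlap for 13 of the 39 members at 2 weeks (background 21.1%) and 8 of 39 at 4 weeks (background 16.4%). With so few members past the threshold, these counts are given as a description. In bulk samples such as these, a lower value from fewer cells of a type and one from less RNA per cell cannot be told apart.

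Few members passed the test between MHCII-low cells after bleomycin and control MHCII-low cells, a comparison with 2 controls. At 2 weeks 1 of the 39 members (2.56%), Zmat3, rose, against a background of 1.91% of all genes. Of the 39, 8 had an unadjusted p under 0.05 (background 12.7%). The median log2 difference over the members was 0.07 there, -0.20 with the mitochondrial share as a covariate and 0.22 with the GC trend removed. Over all genes these medians were -0.09, -0.08 and 0.08. At 4 weeks 0 members changed by limma, edgeR or DESeq2, against 0.046% of all genes, and 3 had an unadjusted p under 0.05 where the background is 6.12%. Both controls lay above or below all 3 bleomycin libraries for 18 of the 39 members at 2 weeks (background 35.3%) and 16 of 39 at 4 weeks (background 27.4%). Between 4 and 2 weeks after bleomycin, 0 members changed in MHCII-low cells by the same 3 tools (6 at an unadjusted p under 0.05, background 7.48%; 0.857% of all genes changed by limma). In MHCII-high cells 1 of the 39 members (2.56%) fell, Trp53inp1 (background 1.07%), and 6 of 39 had an unadjusted p under 0.05 (background 14%). For the interaction of MHCII level and time, 0 members and 0% of all genes passed the adjusted threshold by limma. An unadjusted p under 0.05 was reached by 3 members (Cdkn1a, Trp53inp1 and Aen, an apoptosis nuclease) where the background is 5.68%, and edgeR and DESeq2 also called 0 members.

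**Figure D2:**
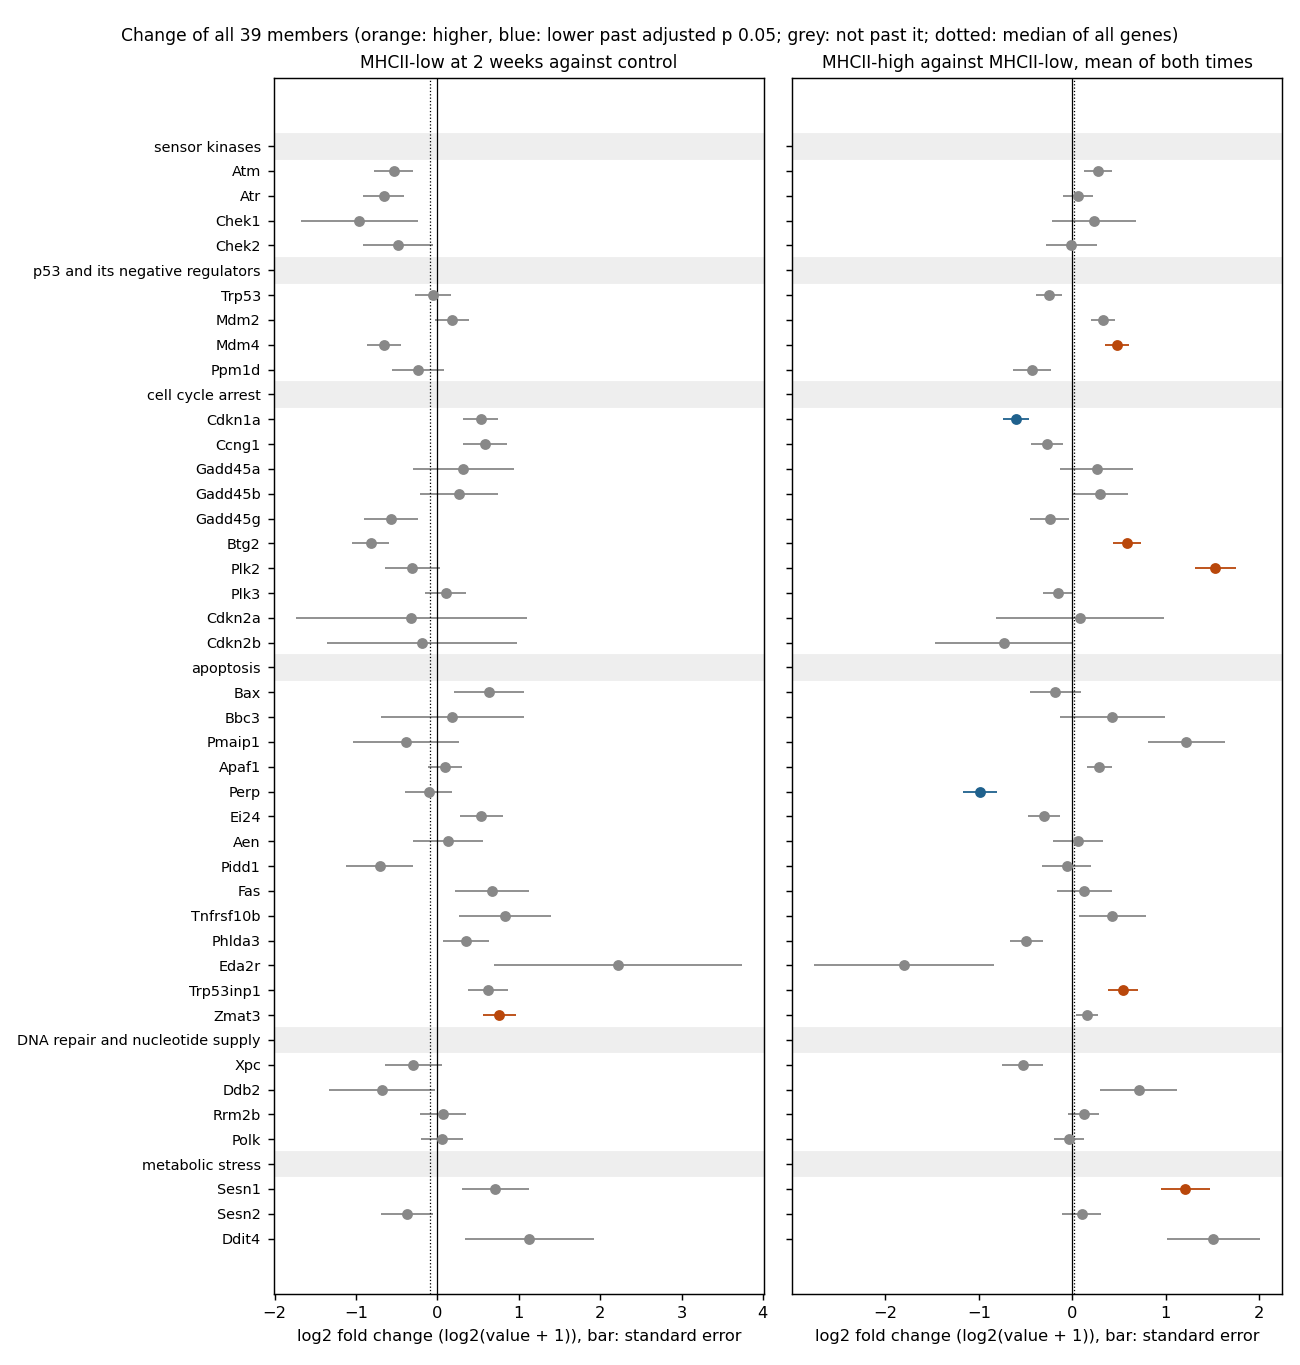
Log2 difference with its standard error for all 39 members, for MHCII-low cells at 2 weeks against control and for MHCII-high against MHCII-low cells averaged over both times. Orange (higher) and blue (lower) marks passed the adjusted threshold, 1 member in the former comparison and 7 in the latter. Grey marks did not pass. Among members that did not pass, differences from control reach 2.22 (Eda2r) and -0.96 (Chek1), with wide error bars.

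The 4 damage kinases were measured at modest levels. Atm, which responds to double-strand breaks, had group means of 2101 normalized counts in controls, 1486 and 1632 in MHCII-low cells at 2 and 4 weeks, and 1627 and 2115 in MHCII-high cells. Atr, which responds to stalled replication, had means of 1637 in controls and 1039 to 1372 in the other 4 groups. Chek1 ranged from 37.7 to 169.6 and Chek2 from 129.4 to 288.3 normalized counts over the 14 libraries. For all 4 kinases, both controls lay above all 3 MHCII-low libraries at 2 weeks, a separation that 35.3% of all genes also showed in 1 direction or the other. None passed the test (log2 differences from -0.96 ± 0.72 for Chek1 to -0.48 ± 0.43 for Chek2, SE; limma, adjusted p 0.24 to 0.72). Between MHCII-high and MHCII-low cells their differences were between -0.01 and 0.28 on average over both times, and none passed by limma. With the GC trend removed, Atr was called lower in MHCII-high cells in this comparison.

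Trp53 itself differed little between groups. In MHCII-low cells it was at 3034.1 and 3428.1 normalized counts in controls, 3503.8, 2710.2 and 3174.8 at 2 weeks, and 3751.8, 2750.0 and 3372.3 at 4 weeks. In MHCII-high cells it was at 2892.2, 2633.7 and 2748.0 at 2 weeks and 3663.0, 2193.4 and 2233.4 at 4 weeks. All groups overlapped except the 2-week MHCII-high libraries and the controls, a pair that was not tested. The log2 difference from control was -0.05 ± 0.22 (SE, n = 3 against 2; limma, adjusted p = 0.96) at 2 weeks and 0.02 ± 0.22 (adjusted p = 1) at 4 weeks. Between MHCII-high and MHCII-low cells it was -0.25 ± 0.14 (limma, adjusted p = 0.32), and with the GC trend removed -0.50 (adjusted p = 0.0095), where the median of all genes moved by -0.26.

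Mdm2, the ligase that degrades p53 and is itself a p53 target, was higher in each MHCII-high library than in any bleomycin MHCII-low library, but the difference did not pass the test. MHCII-high libraries held 6113.1, 6039.8 and 7014.7 normalized counts at 2 weeks and 6056.4, 6169.1 and 10160.5 at 4 weeks. MHCII-low libraries held 5743.5, 6004.8 and 5302.9 at 2 weeks, 4546.8, 5215.8 and 5636.8 at 4 weeks, and 4294.6 and 5823.1 in controls. The separation is by a narrow margin at 2 weeks, and 3.29% of all genes were likewise separated over both times. The log2 difference was 0.33 ± 0.13 (SE; limma, adjusted p = 0.14), and against control the 2-week MHCII-low cells differed by 0.18 ± 0.21 (adjusted p = 0.80).

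Mdm4, the second inhibitor, was higher in MHCII-high cells on average over both times. It was at 7929.4, 7937.1 and 6251.0 normalized counts in MHCII-high libraries at 2 weeks, and 11178.3, 9724.4 and 7670.3 at 4 weeks. MHCII-low libraries had 5331.8, 5992.1 and 4441.2 at 2 weeks and 5202.0, 7843.3 and 7777.6 at 4 weeks, beside 7812.6 and 8642.6 in controls. The 2-week groups did not overlap, while the 4-week groups did. The average log2 difference was 0.48 ± 0.13 (SE, n = 6 against 6; limma, adjusted p = 0.029). The call was lost when any of 7 libraries was left out (log2 0.38 to 0.55, adjusted p up to 0.082), namely MHCII-low replicates 1 and 3 at 2 weeks and 1 at 4 weeks, and MHCII-high replicates 1 and 2 at each time. It was also lost with no filter, with TMM scaling (limma or edgeR), after GC removal and with the mitochondrial covariate (0.24 to 0.48, adjusted p up to 0.21). Below control, the 2-week MHCII-low cells had a log2 difference of -0.66 ± 0.21 that did not pass (limma, adjusted p = 0.13). Ppm1d, a phosphatase that dampens the damage response, had means of 1231 normalized counts in controls and 697.8 to 1059 elsewhere. It passed in no comparison by limma under the main settings, and was called lower in MHCII-high cells on average with the GC trend removed.

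**Figure D3:**
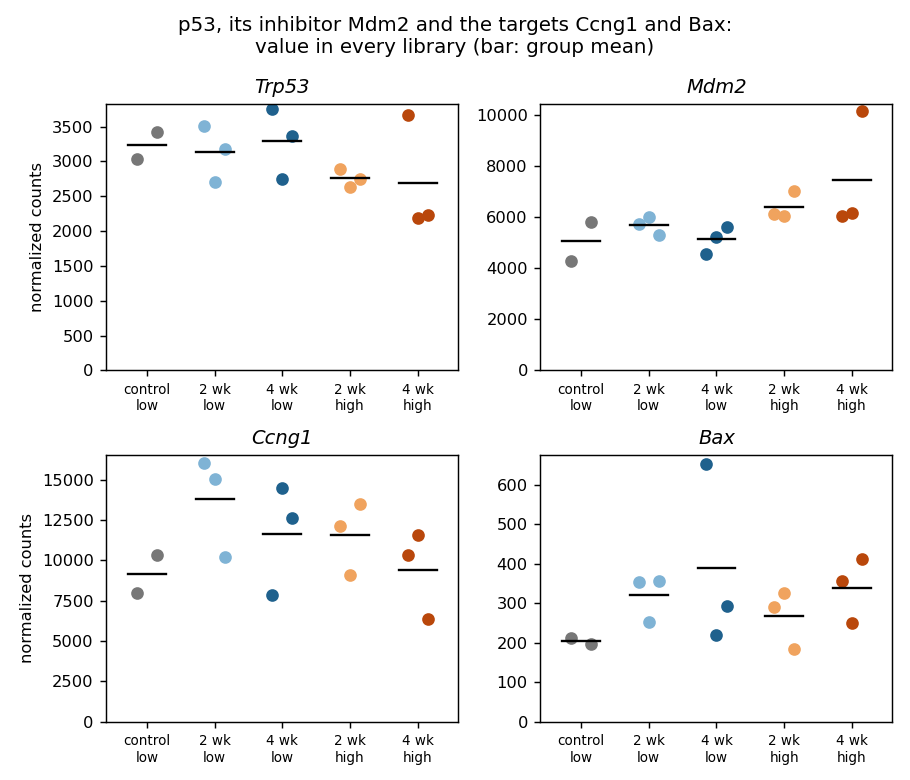
Normalized counts of Trp53, Mdm2, Ccng1 and Bax in each of the 14 libraries by group (points), with the group mean. Trp53 ranges from 2193.4 to 3751.8, and Mdm2 in MHCII-high libraries (6039.8 and above) lies just above the bleomycin MHCII-low libraries (up to 6004.8).

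Cdkn1a, the cell cycle inhibitor that is the best known p53 target, was lower in MHCII-high than in MHCII-low cells. MHCII-high libraries were close together, at 6122.9, 6268.4 and 6817.4 normalized counts at 2 weeks and 7350.9, 6329.2 and 5788.6 at 4 weeks. MHCII-low libraries held 16785.2, 12110.0 and 8452.4 at 2 weeks, 9332.8, 6792.3 and 7993.0 at 4 weeks, and 9325.1 and 7421.0 in controls. The 2-week MHCII-low libraries thus spread most, around a mean of 12450 ± 4180 (SD, n = 3), and 2 of the 3 exceed every other library. At 2 weeks the groups did not overlap, and the log2 difference was -0.90 ± 0.20 (SE; limma, adjusted p = 0.014). At 4 weeks it was -0.30 ± 0.20 (adjusted p = 0.52), and over both times -0.60 ± 0.14 (adjusted p = 0.0095). The difference between the times did not pass (interaction 0.60 ± 0.28, adjusted p = 0.86).

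The 2-week call for Cdkn1a was lost without MHCII-low replicate 1 or MHCII-high replicate 1 or 2 (log2 -1.16 to -0.66 over all leave-outs, adjusted p up to 0.11), and with no filter or with the mitochondrial covariate (adjusted p up to 0.20). The average over both times kept its call in all 12 leave-outs but lost it with the mitochondrial rRNA share as a covariate (log2 -0.38, limma, adjusted p = 0.26). Against control, the 2-week MHCII-low cells had a log2 difference of 0.53 ± 0.22 with overlapping libraries, which did not pass (limma, adjusted p = 0.31). At 4 weeks it was -0.06 ± 0.22 (adjusted p = 1). An antisense gene model, AC167363.2, shares 7.68% of the exon bases of Cdkn1a, and since the sources used here do not state strand-specific counting, reads there cannot be assigned.

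Plk2, a polo-like kinase induced by p53 and by growth signals, was the member that differed most firmly between the sorted populations. MHCII-high libraries held 1162.3, 1134.6 and 837.5 normalized counts at 2 weeks and 1140.5, 516.2 and 675.5 at 4 weeks. MHCII-low libraries held 349.0, 382.2 and 464.7 at 2 weeks and 294.1, 225.5 and 184.4 at 4 weeks, and controls 604.6 and 401.2. Every MHCII-high library lay above every bleomycin MHCII-low library, and 1 control lay above the lowest MHCII-high library. The log2 difference was 1.38 ± 0.31 (SE; limma, adjusted p = 0.015) at 2 weeks, 1.67 ± 0.31 (adjusted p = 0.0027) at 4 weeks and 1.53 ± 0.22 (adjusted p = 8.1e-05) on average. The average and the 4-week call held in every alternative run. The 2-week call was lost without replicate 1 or 2 of either 2-week group (log2 1.29 to 1.53, adjusted p up to 0.083). The 4-week MHCII-low mean of 234.7 ± 55.4 (SD, n = 3) lay below the control mean of 502.9 ± 144 (SD, n = 2), a log2 difference of -1.09 ± 0.34 that did not pass (limma, adjusted p = 0.55).

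Btg2, an antiproliferative p53 target and early response gene, was also higher in MHCII-high cells. It was at 4894.7, 5082.2 and 4046.9 normalized counts in MHCII-high libraries at 2 weeks and 3092.7, 3619.6 and 5163.0 at 4 weeks. MHCII-low libraries held 2038.3, 2851.9 and 3199.6 at 2 weeks and 2998.0, 2954.0 and 3005.5 at 4 weeks, against 5792.4 and 3758.7 in controls. The groups did not overlap at either time, and both controls lay above all 6 bleomycin MHCII-low libraries. Such a separation from the controls, in either direction, was shown by 35.3% of all genes at 2 weeks and 27.4% at 4 weeks. The log2 difference between MHCII-high and MHCII-low cells was 0.81 ± 0.21 (SE; limma, adjusted p = 0.037) at 2 weeks, 0.37 ± 0.21 (adjusted p = 0.43) at 4 weeks and 0.59 ± 0.15 (adjusted p = 0.016) on average. The 2-week call was lost without replicate 1 or 2 of either group (log2 0.62 to 0.95, adjusted p up to 0.24), and the average without MHCII-low replicate 1 or MHCII-high replicate 2 of the 2-week groups (0.49 to 0.67, adjusted p up to 0.056). After GC removal or with the mitochondrial share as a covariate neither passed, and the 2-week call was also lost with no filter and with TMM scaling (adjusted p up to 0.26). Against control, MHCII-low cells differed by -0.82 ± 0.23 at 2 weeks (limma, adjusted p = 0.086; called lower by DESeq2) and -0.64 ± 0.23 at 4 weeks (adjusted p = 0.68).

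The other arrest genes passed in no comparison by limma under the main settings. Ccng1, which encodes cyclin G1 and is a p53 target in many tissues, held 7985.1 and 10319.6 normalized counts in controls. In MHCII-low libraries it was at 16053.5, 15055.9 and 10244.7 at 2 weeks and 7857.0, 14466.9 and 12603.1 at 4 weeks. MHCII-high libraries held 12157.2, 9115.0 and 13482.8 at 2 weeks and 10331.2, 11550.6 and 6366.8 at 4 weeks. The highest 2 libraries were 2-week MHCII-low libraries, but the third lay below a control. The log2 difference from control was 0.58 ± 0.27 at 2 weeks (SE; limma, adjusted p = 0.38) and 0.31 ± 0.27 at 4 weeks (adjusted p = 0.94), and that between MHCII-high and MHCII-low cells was -0.27 ± 0.17 (adjusted p = 0.39), or -0.54 (adjusted p = 0.014) with the GC trend removed. The stress genes Gadd45a, Gadd45b and Gadd45g, which slow the cycle and aid repair, ranged over 26.5 to 199.1, 103.6 to 357.9 and 216.3 to 525.7 normalized counts. Plk3 ranged from 1866.7 to 3811.9. The cyclin-dependent kinase inhibitors Cdkn2a and Cdkn2b, used as marks of senescence, stayed at 0.0 to 29.4 and 3.7 to 53.3, levels at which a few reads decide a difference.

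**Figure D4:**
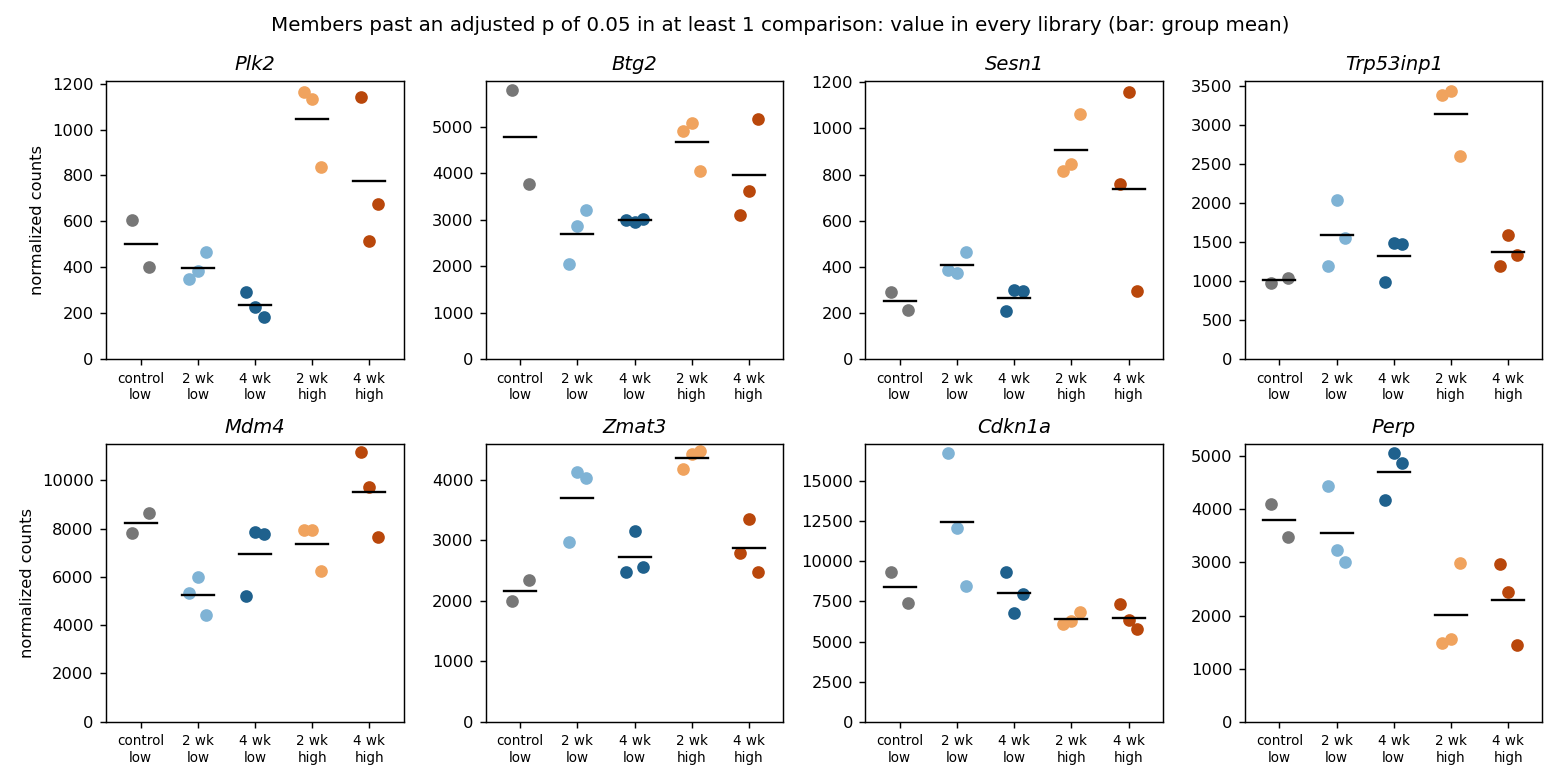
Normalized counts of the 8 members that passed the adjusted threshold in at least 1 comparison, as 1 point per library with the mean of each group. Plk2 is higher in all 6 MHCII-high libraries (516.2 to 1162.3) than in the 6 MHCII-low libraries after bleomycin (184.4 to 464.7), and Perp is lower in them (1444.7 to 2996.5 against 3000.3 to 5054.0).

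Among apoptosis genes, Perp, a membrane protein of cell junctions that is induced by p53 and by p63, was lower in MHCII-high cells. MHCII-high libraries held 1482.9, 1554.8 and 2996.5 normalized counts at 2 weeks and 2963.7, 2439.7 and 1444.7 at 4 weeks. MHCII-low libraries held 4445.8, 3230.9 and 3000.3 at 2 weeks, 4168.6, 5054.0 and 4876.6 at 4 weeks, and 4105.7 and 3480.6 in controls. All 6 MHCII-high libraries lay below all 8 MHCII-low libraries, controls included, at 2 weeks by a narrow margin. The log2 difference was -0.88 ± 0.26 (SE; limma, adjusted p = 0.073; called by DESeq2 and with the GC trend removed) at 2 weeks, -1.10 ± 0.26 (adjusted p = 0.023) at 4 weeks and -0.99 ± 0.18 (adjusted p = 0.0014) on average. The average held in every alternative. The 4-week call was lost without MHCII-low replicate 2 or 3 or MHCII-high replicate 3 (log2 -1.32 to -0.80, adjusted p up to 0.11), and with no filter or with the mitochondrial covariate (adjusted p up to 0.096).

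Trp53inp1, a p53-induced nuclear protein of the stress response, stood out in 2-week MHCII-high cells. There it was at 3385.1, 3435.6 and 2596.8 normalized counts, and at 4 weeks at 1192.5, 1587.8 and 1327.9. MHCII-low libraries held 1188.1, 2036.6 and 1545.6 at 2 weeks, 983.6, 1484.3 and 1473.4 at 4 weeks, and 977.7 and 1040.0 in controls. Each 2-week MHCII-high library lay above all 11 others. The log2 difference between MHCII-high and MHCII-low cells was 1.00 ± 0.22 (SE; limma, adjusted p = 0.014) at 2 weeks and 0.07 ± 0.22 (adjusted p = 0.92) at 4 weeks, and within MHCII-high cells the gene fell by 1.19 ± 0.22 on the log2 scale from 2 to 4 weeks (adjusted p = 0.010). The interaction itself did not pass (-0.93 ± 0.31; limma, unadjusted p under the threshold but adjusted p = 0.66).

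The 2-week call for Trp53inp1 was lost without MHCII-low replicate 1 or MHCII-high replicate 1 or 2 (log2 0.81 to 1.20, adjusted p up to 0.11) and with the mitochondrial share as a covariate (0.70, adjusted p = 0.22). The fall within MHCII-high cells was lost without replicate 1 or 2 of the 2-week group (log2 -1.33 to -1.10, adjusted p up to 0.062). The average over both times, 0.54 ± 0.16 (limma, adjusted p = 0.040), was lost without any of 6 libraries (MHCII-low replicates 1 and 3 at 2 weeks and 1 at 4 weeks, MHCII-high replicates 1 and 2 at 2 weeks and 2 at 4 weeks; log2 0.44 to 0.64, adjusted p up to 0.12). It was also lost with no filter, TMM scaling, GC removal or the covariate (0.25 to 0.54, adjusted p up to 0.50).

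Zmat3, a zinc finger RNA-binding protein and direct p53 target, was the 1 member that rose in MHCII-low cells after bleomycin. Controls held 1997.5 and 2341.7 normalized counts, and the 2-week MHCII-low libraries 2971.3, 4130.6 and 4025.5. The 4-week MHCII-low libraries held 2478.3, 3157.9 and 2559.9, and MHCII-high libraries 4185.2, 4437.5 and 4476.9 at 2 weeks and 2795.1, 3351.3 and 2470.8 at 4 weeks. All 12 bleomycin libraries lay above both controls. In MHCII-low cells alone, 35.3% of all genes at 2 weeks and 27.4% at 4 weeks were separated from the controls in 1 direction or the other. The rise at 2 weeks was 0.76 ± 0.20 on the log2 scale (SE, n = 3 against 2; limma, adjusted p = 0.048), and at 4 weeks the difference was 0.33 ± 0.20 (adjusted p = 0.88). The call sits at the threshold: it was lost without either control or without 2-week replicate 2 or 3 (log2 0.65 to 0.91, adjusted p up to 0.41), with no filter on low values (adjusted p = 0.069), and with the replicate number as a block (0.68, adjusted p = 0.061). Within MHCII-high cells the 4-week level differed from the 2-week level by -0.61 ± 0.18 without passing (limma, adjusted p = 0.093; called lower by DESeq2).

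Bax, which opens the mitochondrial membrane in apoptosis, was low and variable. Controls held 211.5 and 197.1 normalized counts, and MHCII-low libraries 353.5, 253.2 and 357.9 at 2 weeks and 652.6, 219.6 and 294.3 at 4 weeks. MHCII-high libraries held 291.2, 325.2 and 184.2 at 2 weeks and 358.0, 251.0 and 411.4 at 4 weeks. All 6 bleomycin MHCII-low libraries lay above both controls, but the differences, 0.63 ± 0.43 at 2 weeks (SE; limma, adjusted p = 0.61) and 0.77 ± 0.43 at 4 weeks (adjusted p = 0.87), did not pass. A separation from the controls in either direction was shown by 35.3% of all genes at 2 weeks and 27.4% at 4 weeks. Between MHCII-high and MHCII-low cells the difference was -0.18 ± 0.27 (adjusted p = 0.77). The gene model Gm45808 shares 12.2% of the exon bases of Bax on the same strand.

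The remaining apoptosis genes passed in no comparison by limma under the main settings. DESeq2 called Phlda3 lower in MHCII-high cells at 2 weeks and on average, and Pmaip1 higher on average. With the GC trend removed Phlda3 was called lower in both and Ei24 lower on average. Pmaip1 was also called on average without MHCII-high replicate 2 of 4 weeks. Pmaip1, which encodes the killer protein Noxa, ranged from 36.2 to 245.6 normalized counts. All 3 MHCII-high libraries at 2 weeks lay above the MHCII-low ones, and the average log2 difference was 1.22 ± 0.41 (SE; limma, adjusted p = 0.078). Bbc3, which encodes Puma, ranged from 14.6 to 133.2. The death receptors Fas and Tnfrsf10b ranged over 208.3 to 1016.3 and 45.8 to 337.5. Phlda3, an inhibitor of Akt signalling, ranged from 384.3 to 841.3 and was lower in all 3 MHCII-high libraries than in the MHCII-low libraries at 2 weeks (log2 -0.73 ± 0.25, SE; limma, adjusted p = 0.14). Apaf1, the core of the apoptosome, Ei24, Pidd1 and Aen ranged over 1727.3 to 3545.4, 871.5 to 1831.4, 129.5 to 377.1 and 112.7 to 389.1.

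Among metabolic stress genes Sesn1, a sestrin that restrains the growth kinase mTORC1 and limits oxidative damage, was higher in MHCII-high cells. MHCII-high libraries held 815.0, 847.0 and 1061.7 normalized counts at 2 weeks and 757.6, 1157.9 and 293.3 at 4 weeks. MHCII-low libraries held 387.1, 374.2 and 464.2 at 2 weeks, 206.7, 298.0 and 293.2 at 4 weeks, and 288.6 and 214.4 in controls. The 2-week groups did not overlap, whereas replicate 3 of the 4-week MHCII-high group lay among the MHCII-low libraries. The log2 difference was 1.15 ± 0.37 (SE; limma, adjusted p = 0.11) at 2 weeks, 1.27 ± 0.37 (adjusted p = 0.076) at 4 weeks and 1.21 ± 0.26 (adjusted p = 0.0055) on average. The average kept its call in all 12 leave-outs and lost it with the mitochondrial share as a covariate (1.07, adjusted p = 0.11). Its relative Sesn2 ranged from 580.5 to 1088.2 with an average difference of 0.10 ± 0.21 (adjusted p = 0.85). Ddit4, another brake on mTORC1, ranged from 16.3 to 181.1, with an average difference of 1.51 ± 0.50 that did not pass (limma, adjusted p = 0.072). DESeq2 called Ddit4 higher there, as did limma without MHCII-low replicate 3 or MHCII-high replicate 2 of 4 weeks. DESeq2 also called Sesn1 higher at each time alone.

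The 4 members of DNA repair and nucleotide supply passed in no comparison by limma under the main settings. Xpc was called lower in MHCII-high cells on average with the GC trend removed and without MHCII-low replicate 2 of 4 weeks. Xpc, which recognises damaged bases in nucleotide excision repair, ranged from 311.6 to 922.7 normalized counts, and its partner Ddb2 from 36.9 to 402.9. Ddb2 was highest in the 4-week MHCII-high libraries (168.6, 194.6 and 402.9), all above the 2-week ones (151.8, 36.9 and 69.5), with a log2 difference of 1.68 ± 0.58 (SE; limma, adjusted p = 0.17). The gene Acp2 overlaps 23.8% of the exon bases of Ddb2 on the other strand. Rrm2b, a subunit of the enzyme that makes deoxynucleotides, ranged from 1072.6 to 2370.7 and the translesion polymerase gene Polk from 1245.5 to 2251.9.

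**Figure D5:**
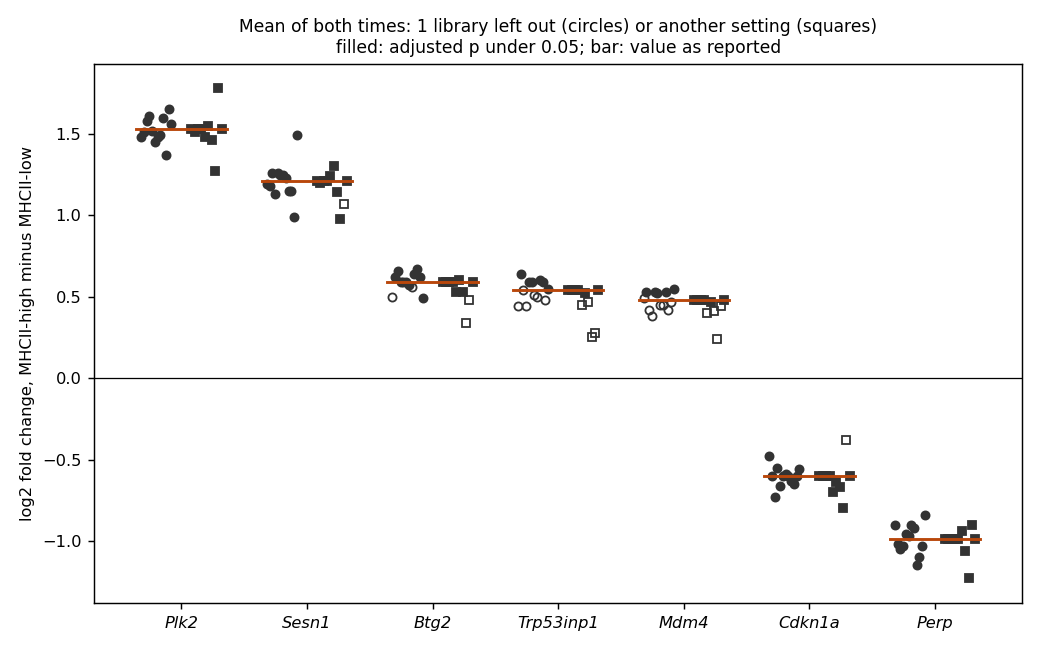
Log2 difference of the 7 members that changed between MHCII-high and MHCII-low cells on average over both times under the main settings, with each library left out (circles) and under the other settings (squares). No value crosses 0: Plk2 runs from 1.27 to 1.78 and Mdm4 from 0.24 to 0.55.

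Further lists of the pathway were counted in the same way, beside the shares of all genes given above (2.87% at 2 weeks and 7.21% on average between MHCII-high and MHCII-low cells). Their calls are from the main fit only, and were not checked with the mitochondrial covariate or with libraries left out. Of 24 other p53 target genes, 1 (Ak1, an adenylate kinase) was higher in MHCII-high cells at 2 weeks, and on average over both times 1 (Fuca1, a lysosomal fucosidase) was lower. Ak1 was at 19.6, 11.5 and 14.8 normalized counts in the 2-week MHCII-high libraries and at 0.0 to 3.2 elsewhere, so its log2 difference of 4.00 ± 1.09 (limma, adjusted p = 0.049) rests on few reads. Fuca1 differed by -0.42 ± 0.11 (adjusted p = 0.025). Against control, 0 of the 24 passed at either time by limma, with 2 and 1 at an unadjusted p under 0.05 (12.7% and 6.12% of all genes at 2 and 4 weeks). Of 14 p53 regulators and family members tested, 0 passed in any of the 8 comparisons by limma, with at most 3 at an unadjusted p under 0.05.

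The list of strand break signalling and repair held 25 genes, among them Blmh, the hydrolase that inactivates bleomycin. Of these, Xrcc5, which encodes the Ku80 end-binding protein, was lower in MHCII-high cells by limma, by -0.87 ± 0.21 (adjusted p = 0.022) at 2 weeks and -0.58 ± 0.15 (adjusted p = 0.017) on average. It held 1170.0, 865.9 and 1425.7 normalized counts in MHCII-high libraries at 2 weeks, and 2356.0, 2146.5 and 1752.6 in MHCII-low libraries. None of the other 24 passed in any comparison, and against control 0 of 25 passed at either time by limma, with 4 and 2 at an unadjusted p under 0.05. Of 17 replication checkpoint genes 0 passed in any comparison by limma. Against control, 13 of these 17 had a negative difference at each time, with 3 and 2 at an unadjusted p under 0.05. Of 20 cell cycle genes, 19 at 2 weeks and all 20 at 4 weeks were negative against control, with medians of -0.56 and -0.70 beside -0.09 and -0.06 over all genes. None of the 20 passed the adjusted threshold there, and 7 at each time had an unadjusted p under 0.05, beside 12.7% and 6.12% of all genes. Their summed level was 23537.7 and 25806.8 in controls and 11134.9 to 16183.5 in bleomycin MHCII-low libraries. Whether this cell cycle difference has a part in the lower Chek1 values was not tested.

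Markers of other cells moved with the sorted populations. On average over both times, 8 of 10 monocyte-derived macrophage, 6 of 8 dendritic cell and 4 of 7 lymphocyte markers were higher in MHCII-high cells and 7 of 10 alveolar macrophage markers lower (limma). The dendritic cell marker Flt3 was at 91.7 to 280.8 normalized counts in MHCII-high and at 0.0 to 17.9 in MHCII-low libraries. Of 9 epithelial markers 3 were higher and 1 lower. Of 18 immediate early and dissociation stress genes, 6 were higher (Fosb, Jun, Egr1, Nr4a1, Hspa1a and Hspa1b) and 1 lower (Egr2). Of all genes, 5% were higher and 2.21% lower. The median was 0.48 beside 0.02 over all genes. Against control, 2 of the 18 were lower and 0 higher in MHCII-low cells at each time (limma), beside 1.91% and 0.046% of all genes. Hspa1a was at 1480.2 and 1838.9 normalized counts in controls and 76.5 to 1180.6 in bleomycin libraries. Hspa1b was at 666.9 and 928.9 in controls and 16.7 to 377.6 in bleomycin libraries. Plk2 and Btg2 are themselves early response genes. The part of these markers and stress genes in the differences of Plk2, Btg2, Sesn1, Trp53inp1, Mdm4, Perp and Cdkn1a was not tested. For the rise of Zmat3 at 2 weeks, 7 of 10 monocyte-derived macrophage markers were higher than in controls (summed level 26896.7 to 31634.9 against 14301.9 and 16840.2), and their part was not tested either.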

How the data were processed

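Messenger RNA of 14 libraries of sorted lung cells was sequenced. Per the labels' protocols, mRNA was bead-purified, amplified as cDNA and made into transposase-tagged libraries; per the submitters' processing notes STAR, DESeq2 and build mm10 were used. The sources used here name neither versions nor a counting program. Per the file headers, the deposited values are normalized counts, a signal the authors made from gene counts; exon length and GC percent were also deposited by the authors. Among low nonzero values, 99.83% to 100.0% per library were whole multiples of 1 step (within 0.05, the rounding). Higher values were not checked in this way. All values were divided by the step of their library and rounded to whole reads. The 652 genes without a symbol kept their identifier. No replicate pair agreed within sampling noise.

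Values were tested with limma 3.58.1 (R 4.3.3) as log2(normalized count + 1) with a mean-variance trend, 1 fit over 17390 genes and 5 groups, two-sided, Benjamini-Hochberg adjusted per comparison over all genes; a fold change on this scale understates that of low genes. Alternatives used edgeR 4.0.16 and DESeq2 1.42.0 on recovered reads, other filters, pseudocounts and scalings, covariates and left-out libraries. The code was tested on simulated data.

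The members and lists were chosen with earlier results of these data known. Trp53, Mdm2, Cdkn1a, Ccng1, Bax and every member past adjusted p 0.05 are given in full, others by range; other pathway lists name up to 3 genes per direction past the threshold. Of 16 listed p53 regulators, 15 were in the table and 14 tested. Overlaps of exons were read from GENCODE M21 gene models, in which 29 of 39 members had the same span as in the table.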

Additional observations from a re-analysis of the deposited data

How the results depend on the processing

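Over the 15 member results past the threshold, 281 alternatives were run: all 281 kept the sign and 217 kept the call, 38 calls were lost by leaving out a library and 26 by other settings. Counts of members past the threshold moved as follows, given without the share of all genes called under each setting. For MHCII-high against MHCII-low at 2 weeks (4 members), no filter gave 2, DESeq2 7, the mitochondrial rRNA share as a covariate 1, and leaving out a library 0 to 5. At 4 weeks (2 members), no filter gave 1, the covariate 1 and leave-outs 1 to 2. On average over both times (7 members), removing a trend with GC content gave 11, the covariate 2 and leave-outs 4 to 8. For 2-week MHCII-low cells against control (1 member), no filter gave 0, DESeq2 2, GC removal 2 and leave-outs 0 to 1. At 4 weeks every setting gave 0, as for the interaction. Between 4 and 2 weeks, MHCII-low cells gave 0 to 1 in leave-outs (Cdkn1a without 2-week replicate 3), and MHCII-high cells (1 member) 2 by DESeq2 and 0 to 1 in leave-outs. The causes were not tested.

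GC removal shifted the median of all genes by -0.30 at 2 weeks, -0.22 at 4 weeks and -0.26 on average between MHCII-high and MHCII-low cells, and by 0.16 and 0.11 against control. It turned the average split to 2 members higher and 9 lower, with Trp53 at -0.50 and Ccng1 at -0.54 among the lower, and the 2-week split to 2 higher and 3 lower. edgeR with TMM factors gave 3 higher and 2 lower on average. Results near 0 changed sign: Trp53 on average was 0.04 with the covariate. Trp53 at 2 weeks against control was 0.09 after GC removal and -0.14 to 0.05 in leave-outs, and at 4 weeks -0.31 with the covariate and -0.08 to 0.14 in leave-outs. Over leave-outs, Cdkn1a at 4 weeks against control ran from -0.23 to 0.10, and Mdm2 from -0.04 to 0.40 at 2 weeks and -0.19 to 0.25 at 4 weeks. Bax on average was 0.25 with the covariate and -0.34 to 0.05 in leave-outs.

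Whether equal replicate numbers mark libraries of the same mouse is not stated. Same-numbered MHCII-high and MHCII-low libraries correlated in their deviations at 0.02 to 0.13, and 5 of 6 such pairs exceeded the highest value with another number, a hint from the data and not from the design; the number was not used as a pairing. With the number as a replicate block, 4, 2 and 7 members passed between MHCII-high and MHCII-low cells, as without it. Against control at 2 weeks 0 passed and Trp53 was at 0.04. The shallowest library has 15106415 reads, so members under about 10 normalized counts, such as Eda2r, rest on few reads. Leaving out 1 control leaves a lone control, assumed to vary like the other groups.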

Other observations

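Blmh, the hydrolase that inactivates bleomycin, was singled out after its values were seen. It was at 969.9 to 1749.7 normalized counts over the 14 libraries, and MHCII-low cells differed from control by 0.32 ± 0.22 on the log2 scale at 2 weeks (SE; limma, adjusted p = 0.62) and 0.14 ± 0.22 at 4 weeks (adjusted p = 0.97). Of 7 glucocorticoid response genes 6 had a positive difference from control at each time, with medians of 0.96 and 0.67, and 0 passed by limma (3 and 2 at an unadjusted p under 0.05).

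Of 5 neutrophil markers tested 1 was higher in MHCII-low cells at 2 weeks than in controls, and Ly6g was at 0 in 11 of the 14 libraries. Of 9 fibroblast and endothelial markers 0 passed against control by limma (1 and 0 at an unadjusted p under 0.05). Mcm5, a subunit of the replicative helicase, was the 1 of 20 cell cycle genes to pass anywhere: within MHCII-high cells it fell by 1.29 ± 0.30 on the log2 scale from 2 to 4 weeks (limma, adjusted p = 0.037).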
